A study of Homo sapiens with 12 samples.

Results

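The expression of 8 genes of bone matrix and osteoblasts was followed in U2OS, an osteosarcoma cell line, after treatment with ST362 or MEB55, which are analogues of strigolactones, a class of plant hormones. The genes were SPP1, IBSP, BGLAP, SPARC, COL1A1, COL1A2, ALPL and RUNX2, and every probe that the probe table of the array assigns to 1 of these symbols was taken, which gave 11 of the 47313 probes for 8 of 20045 genes. The 12 arrays fell into 6 groups of 2, namely ST362, MEB55 and vehicle (acetone alone) for 6 h, and the same treatments for 24 h, with both analogues at 5 ppm. The doses are equal in mass per volume but not in molar amount, which is higher for MEB55 by the study's conversion. All groups share a single cell line with no non-malignant osteoblasts beside it. Levels are log2 bead signals after background correction and quantile normalization, so a difference of 1 is a 2-fold change, and a probe was called detected on an array when its detection p against the negative control beads was under 0.05. Levels of different probes depend on the probe and are not compared with each other.

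Osteoblasts lay down a matrix that consists mostly of collagen I fibrils, which are built from chains encoded by COL1A1 and COL1A2, and then mineralise it. The acidic glycoproteins osteopontin (SPP1) and bone sialoprotein (IBSP) bind calcium and integrins, osteonectin (SPARC) binds collagen and calcium, and osteocalcin (BGLAP) is made by mature osteoblasts. Tissue non-specific alkaline phosphatase (ALPL) removes pyrophosphate, an inhibitor of mineral formation, and RUNX2 is the transcription factor that osteoblast formation requires.

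The line showed this programme in part. SPP1, SPARC, COL1A1 and ALPL, 4 of the 8 genes, were detected on all 12 arrays. Each RUNX2 probe was detected on 7 arrays, the BGLAP probe on 6, the IBSP probe on 3, and each COL1A2 probe on 1. The mesenchymal markers VIM, THY1, CDH11 and CDH2 were detected on all 12 arrays, whereas of the 5 osteocyte markers SOST, DMP1 and MEPE were each detected on 1 array, PHEX on 2 and FGF23 on 11, the last with levels of 4.49 to 5.11. Of the epithelial markers 3 of 5 (EPCAM, KRT8 and KRT18) were also detected on all 12 arrays, and CDH1 and KRT19 each on 3. For cartilage this held for 1 of 4 genes (SOX9), with COL2A1 and COL9A1 each on 2 arrays and ACAN on 0. For fat cells it held for 2 of 3 (PPARG and LPL), with ADIPOQ on 4. For blood cells it held for 1 of 4 (CD34), with CD14 on 6 and PTPRC and CD3E on 0. The endothelial genes PECAM1, CDH5 and VWF were each detected on 1 array. Of the osteoclast genes with a probe, CTSK was detected on 7 arrays and CALCR and OCSTAMP on 0. Where a marker gene outside the 8 had several probes, only the probe detected on the most arrays is given. CD34 had 5 probes, PPARG 4 and EPCAM 3. Of the 11 probes, 8 entered the tests, among 22186 probes in all, because some group had them detected on each of its arrays. These 8 read 6 genes, since IBSP and COL1A2 did not pass.

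Between 42.7% and 47.4% of all probes were detected on an array. The arrays of a group were not alike. HSPA6, a heat shock gene, had a level of 10.51 on ST362 6 h replicate 1, 11.01 on MEB55 6 h replicate 1, 11.06 on ST362 24 h replicate 2 and 12.54 on MEB55 24 h replicate 2. On the other 4 analogue arrays it lay between 4.75 and 5.61, against 4.41 to 4.73 on the 4 vehicle arrays. Across the tested probes, which are not independent, ST362 6 h replicate 1 correlated at r = 0.986 with ST362 24 h replicate 2, and ST362 6 h replicate 2 at r = 0.989 with ST362 24 h replicate 1, against r = 0.977 between the replicates at 6 h and r = 0.977 at 24 h. For MEB55 the values were r = 0.988 and r = 0.989 across the times, against r = 0.977 between the replicates at 6 h and r = 0.971 at 24 h. Analogue arrays thus resembled arrays of the same analogue at the other time label more than their own replicate. They also resembled the array of the other analogue with the same time and replicate number more than their own replicate. Between ST362 and MEB55, r was 0.9914 for replicate 1 and 0.9827 for replicate 2 at 6 h. At 24 h it was 0.9814 for replicate 1 and 0.9895 for replicate 2. The 6 h and 24 h values below rest on the labels as given. The part of these differences between arrays in the results on the bone genes was not tested. Values of a pair of arrays are given below as replicate 1 and then replicate 2.

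SPP1 was the gene of the set with higher levels after both analogues. Over both times, its probe ILMN_1651354 was 4.15-fold higher with MEB55 than with vehicle and 2.98-fold higher with ST362 than with vehicle, and only the MEB55 difference passed the test. On the 6 h arrays this probe read 7.13 and 7.89 with ST362, 8.00 and 8.85 with MEB55, and 6.04 and 6.08 with vehicle. On the 24 h arrays it read 8.99 and 8.19 with ST362, 9.54 and 7.72 with MEB55, and 6.84 and 6.94 with vehicle. All 8 analogue arrays lay above all 4 vehicle arrays, and the highest level of all was on MEB55 24 h replicate 1. The second SPP1 probe, ILMN_2374449, read 6.49 and 7.04 with ST362, 7.27 and 8.14 with MEB55, and 5.42 and 5.75 with vehicle at 6 h. After 24 h the readings were 8.20 and 7.32 with ST362, 9.01 and 6.99 with MEB55, and 6.18 and 6.28 with vehicle. The groups did not overlap here either, and the probes followed each other across the 12 arrays (r = 0.992). As RNA was taken from whole cultures, a change in RNA per cell and a change in the share of cells that make it cannot be told apart for any gene here.

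**Figure D1:**
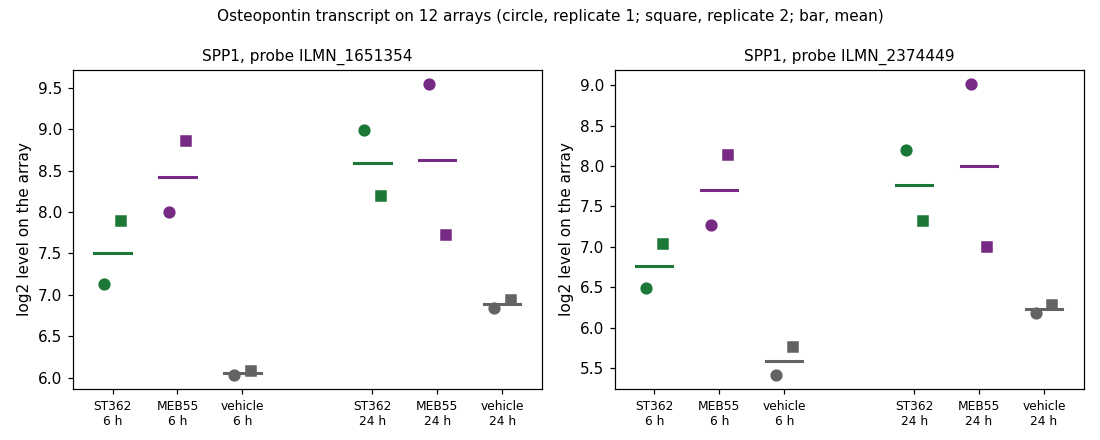
SPP1 levels on the 12 arrays for its 2 probes, in log2 units on the vertical axis, with ST362, MEB55 and vehicle at 6 h and then at 24 h (circle, replicate 1; square, replicate 2; bar, group mean of 2 arrays). For ILMN_1651354 the 8 analogue arrays span 7.13 to 9.54 and the 4 vehicle arrays 6.04 to 6.94.

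In the limma fit of treatment over both times (4 arrays each), ILMN_1651354 had a log2 fold change of 2.05 with MEB55 (SE 0.409, 95% interval 1.18 to 2.93, limma adjusted p = 0.0468) and 1.58 with ST362 (SE 0.409, 95% interval 0.70 to 2.45, limma adjusted p = 0.0986). For ILMN_2374449 the limma values were 1.94 with MEB55 (SE 0.41, adjusted p = 0.0564) and 1.35 with ST362 (SE 0.41, adjusted p = 0.155). Thus 1 of the 8 tested probes was called with MEB55, where 0.446% of all 22186 tested probes were called, and 0 of 8 with ST362, where 0.577% were called. At an unadjusted p under 0.05, 4 of the 8 passed with each analogue, where 10.5% of all tested probes passed with MEB55 and 13.2% with ST362. These 4 were both SPP1 probes, COL1A1 and the RUNX2 probe ILMN_1716651, which entered the tests only through the vehicle groups. The MEB55 call of SPP1 was close to the threshold. Its limma adjusted p ranged between 0.0348 and 0.175 over the alternative settings and the omission of single arrays. The ordinary t-test used for the cutoff of the study's methods gave an adjusted p of 0.201. Of 13 other settings, that t-test included, 6 had an adjusted p under 0.05, as had 2 of 12 fits without 1 array. With the replicate number as a block the limma adjusted p was 0.0566. The labels and methods do not say whether the 2 samples of a group at both times came from separate cultures. A legend of the study speaks of independent experiments at 6 h. The p-values thus measure the spread between these samples, which may be technical. This fit has no time term, so that spread also holds differences between the times. For ILMN_1651354 in vehicle the SD was 0.481 over both times, against 0.027 at 6 h and 0.065 at 24 h.

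When each time was tested by itself, with 2 arrays a group, 0 of the 8 probes and 0% of all tested probes were called for either analogue at 6 h or 24 h. At an unadjusted p under 0.05, 1 of the 8 passed with ST362 at 6 h (5.81% of all probes) and 4 at 24 h (7.59% of all). With MEB55, 2 passed at 6 h (4.63% of all) and 4 at 24 h (5.31% of all). At 6 h these were SPP1 ILMN_1651354 with ST362 and both SPP1 probes with MEB55. At 24 h they were, for each analogue, both SPP1 probes, COL1A1 and RUNX2 ILMN_1716651, which entered the tests only through the vehicle groups. The SPP1 probes read the same gene (r = 0.992), so these counts are not of independent probes. For ILMN_1651354 of SPP1 the log2 fold change was 1.45 with ST362 at 6 h (limma adjusted p = 0.847) and 2.37 with MEB55 at 6 h (limma adjusted p = 0.757). At 24 h it was 1.70 with ST362 (limma adjusted p = 0.567) and 1.74 with MEB55 (limma adjusted p = 0.788). The MEB55 24 h value was 0.83 without its replicate 1 and 2.65 without its replicate 2, and leaving out single arrays moved the ST362 24 h value between 1.31 and 2.10. Under the cutoff named in the study's methods, an unadjusted p under 0.05 with more than a 2-fold change and a signal of at least 100 in a group compared, this probe passed in 3 of these 4 comparisons, all but ST362 at 6 h, and ILMN_2374449 passed for MEB55 at both times. Of all tested probes, 0.365% passed this cutoff with ST362 at 6 h, 0.491% with ST362 at 24 h, 0.379% with MEB55 at 6 h and 0.401% with MEB55 at 24 h. Over both times 3 of the 8 probes passed it with each analogue, both SPP1 probes and COL1A1, where 0.509% of all tested probes passed with ST362 and 0.514% with MEB55.

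Within each analogue group the SPP1 level was lower on the array with more HSPA6. For ILMN_1651354 the difference, more minus less HSPA6, was -0.76 for ST362 6 h, -0.86 for MEB55 6 h, -0.80 for ST362 24 h and -1.82 for MEB55 24 h. The same direction in all 4 groups was found for 13% of all tested probes, and among the 8 bone probes for both SPP1 probes and RUNX2 ILMN_1716651. The opposite direction in all 4 groups was found for 12.8% of all tested probes and for COL1A1 alone among the 8. The SPP1 probes read the same gene. The RUNX2 probe was near background and entered the tests only through the vehicle groups. Its difference for MEB55 24 h was -0.012, with neither array detected.

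SPP1 and IBSP lie in a cluster of related acidic matrix genes on chromosome 4, where RefSeq gives the protein coding genes in the order DSPP, DMP1, IBSP, MEPE, SPP1 and PKD2. The IBSP probe, ILMN_1719194, read 4.69 and 4.44 with ST362, 4.46 and 4.55 with MEB55, and 4.35 and 4.27 with vehicle at 6 h. The 24 h arrays read 4.29 and 4.29 with ST362, 4.27 and 4.54 with MEB55, and 4.34 and 4.39 with vehicle. It was detected on 1 ST362 array, 2 MEB55 arrays and 0 vehicle arrays and was not tested, and all 12 values lay within 0.42 of each other.

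The start regions of SPP1, IBSP and BGLAP are shown because these calcium-binding matrix genes had such different levels of detection and because RUNX2 is known to bind start regions of this kind. They run 250 bases before to 50 bases after the gene start in RefSeq (GRCh38.p14), on the plus strand, at chr4:87975464-87975763 for SPP1, chr4:87799304-87799603 for IBSP and chr1:156241934-156242233 for BGLAP. Capitals mark every match to 4 short motifs, none of which overlap: the RUNX core ACCACA, AP-1 TGANTCA and CCAAT, each on both strands, and the TATA box TATAAA on the strand of the gene.
SPP1: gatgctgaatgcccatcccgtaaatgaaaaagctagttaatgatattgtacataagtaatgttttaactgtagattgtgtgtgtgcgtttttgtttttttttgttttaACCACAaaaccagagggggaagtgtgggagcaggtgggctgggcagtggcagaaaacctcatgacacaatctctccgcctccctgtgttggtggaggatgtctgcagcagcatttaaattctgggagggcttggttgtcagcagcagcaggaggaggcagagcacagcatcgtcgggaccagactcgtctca
IBSP: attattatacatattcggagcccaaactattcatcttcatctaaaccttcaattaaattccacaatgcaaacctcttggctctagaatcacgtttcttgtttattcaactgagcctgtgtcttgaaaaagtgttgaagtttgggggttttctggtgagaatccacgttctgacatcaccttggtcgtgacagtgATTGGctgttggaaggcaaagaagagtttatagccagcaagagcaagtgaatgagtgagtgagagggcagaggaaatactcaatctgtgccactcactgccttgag
BGLAP: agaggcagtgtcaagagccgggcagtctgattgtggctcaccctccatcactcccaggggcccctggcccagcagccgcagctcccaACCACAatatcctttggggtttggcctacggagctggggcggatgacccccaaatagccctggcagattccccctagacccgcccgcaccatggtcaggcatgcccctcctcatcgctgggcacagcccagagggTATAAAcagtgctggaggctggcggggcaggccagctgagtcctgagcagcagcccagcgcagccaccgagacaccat
The SPP1 window holds 1 RUNX core, which begins 142 bases before the start, and the BGLAP window holds 1 that begins 163 bases before it. BGLAP also has a TATA match 28 bases before the start, and the IBSP window has a CCAAT match on the minus strand only. Of 35116 windows of the same length in the table, 13.1% hold the RUNX core, 7.71% AP-1, 7.33% TATAAA and 34.6% CCAAT. The first of the RUNX2 starts holds 4 RUNX cores and 1 AP-1 match, and the other RUNX2 start, the 3 ALPL starts and the SPARC start have 0 matches to the 4 motifs. A match describes the sequence and is not evidence of binding.

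COL1A1, which encodes the alpha 1 chain of collagen I, was lower on all 8 analogue arrays than on any vehicle array, with about the same fold change for both analogues, but did not pass the test. At 6 h its probe ILMN_1701308 read 8.56 and 8.14 with ST362, 8.82 and 7.48 with MEB55, and 8.89 and 8.95 with vehicle. At 24 h it read 6.86 and 8.26 with ST362, 7.01 and 8.43 with MEB55, and 9.03 and 9.14 with vehicle. The vehicle arrays spanned a narrow range while the analogue arrays were widely spread, and the lowest levels were on replicate 1 of both analogues at 24 h. Over both times the log2 fold change was -1.07 with MEB55 (SE 0.378, 95% interval -1.88 to -0.26, limma adjusted p = 0.297) and -1.04 with ST362 (SE 0.378, 95% interval -1.85 to -0.23, limma adjusted p = 0.245). At 24 h alone it was -1.37 with MEB55 (limma adjusted p = 0.916) and -1.52 with ST362 (limma adjusted p = 0.598), and at 6 h -0.77 with MEB55 and -0.57 with ST362. These values moved when single arrays were left out, at 24 h between -2.08 and -0.66 with MEB55 and between -2.23 and -0.82 with ST362, and at 6 h between -1.43 and -0.10 with MEB55 and between -0.78 and -0.36 with ST362, each time with 1 replicate of the analogue left out.

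The counts of probes with no overlap can be read against all tested probes. All 4 ST362 arrays lay above all 4 vehicle arrays for 4.07% of the 22186 probes and below them for 4.3%. For MEB55 these shares were 3.26% above and 3.41% below, and for all 8 analogue arrays together 1.08% above and 1.15% below. Among the 8 bone probes, both SPP1 probes lay above in each of these counts. COL1A1 lay below in each of them, and RUNX2 ILMN_1716651, which entered the tests only through vehicle, lay below for MEB55.

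**Figure D2:**
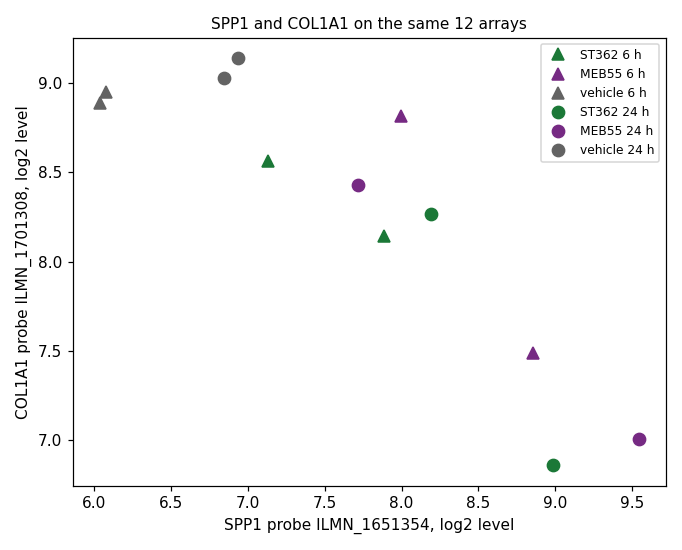
Level of SPP1 (ILMN_1651354, horizontal axis) against COL1A1 (ILMN_1701308, vertical axis) on the 12 arrays, both in log2 units (triangle, 6 h; circle, 24 h). The 4 vehicle arrays lie at the upper left, with SPP1 at 6.94 or less and COL1A1 at 8.89 or more, and MEB55 24 h replicate 1 and ST362 24 h replicate 1 lie at the lower right.

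Arrays with more SPP1 had less COL1A1 (r = -0.88 over the 12 arrays, which share treatments and are given as a description). Within each of the 4 analogue groups the array with the higher SPP1 level had the lower COL1A1 level, by 0.42 for ST362 6 h, 1.33 for MEB55 6 h, 1.41 for ST362 24 h and 1.42 for MEB55 24 h on the log2 scale. These were also the arrays with less HSPA6. The alpha 2 chain gene, COL1A2, could not be followed, as its probes were near background. ILMN_1785272 ranged between 4.15 and 4.54 and ILMN_2104356 between 4.19 and 4.57, and each was detected on 1 MEB55 6 h array and on 0 ST362 and 0 vehicle arrays.

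SPARC, or osteonectin, varied widely between replicates and times. At 6 h its probe ILMN_1796734 read 8.65 and 6.79 with ST362, 9.06 and 7.33 with MEB55, and 8.90 and 8.55 with vehicle. The 24 h readings were 7.51 and 7.21 with ST362, 7.69 and 7.72 with MEB55, and 7.58 and 7.76 with vehicle. Replicate 1 of both analogues at 6 h was close to vehicle 6 h and replicate 2 was lower, near or below the 24 h arrays, so the groups overlapped. Over both times the log2 fold change was -0.25 with MEB55 (95% interval -1.15 to 0.66, limma adjusted p = 0.905) and -0.66 with ST362 (95% interval -1.56 to 0.25, limma adjusted p = 0.549). At 6 h alone it was -0.53 with MEB55 and -1.0 with ST362, and at 24 h 0.04 with MEB55 and -0.31 with ST362. Without replicate 1 the MEB55 6 h value was -1.39 and without replicate 2 it was 0.34, and the ST362 6 h value was -1.93 without replicate 1 and -0.08 without replicate 2.

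ALPL, the alkaline phosphatase, followed SPARC across the arrays (r = 0.92, over 12 arrays that share treatments). At 6 h its probe ILMN_1701603 read 8.18 and 5.54 with ST362, 8.16 and 6.40 with MEB55, and 8.02 and 7.84 with vehicle. Its 24 h levels were 5.84 and 5.83 with ST362, 7.43 and 6.12 with MEB55, and 6.11 and 6.39 with vehicle. High levels were thus on both vehicle 6 h arrays, on replicate 1 of each analogue at 6 h and on MEB55 24 h replicate 1. Over both times the log2 fold change was -0.06 with MEB55 (95% interval -1.35 to 1.23, limma adjusted p = 0.984) and -0.74 with ST362 (95% interval -2.03 to 0.55, limma adjusted p = 0.655). At 6 h alone it was -0.65 with MEB55, and 0.23 without MEB55 6 h replicate 2, and it was -1.07 with ST362, and 0.26 without ST362 6 h replicate 2. At 24 h it was 0.53 with MEB55, and -0.13 without MEB55 24 h replicate 1, and -0.41 with ST362.

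**Figure D3:**
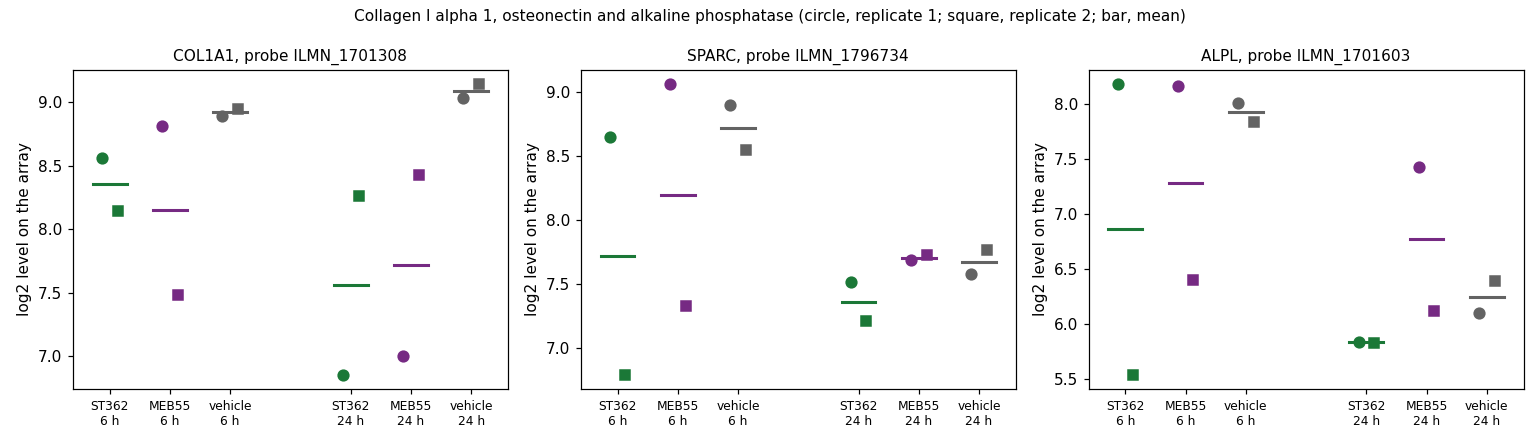
Levels of COL1A1, SPARC and ALPL on the 12 arrays in log2 units, with ST362, MEB55 and vehicle at 6 h and then at 24 h (circle, replicate 1; square, replicate 2; bar, group mean of 2 arrays; each panel has its own vertical scale). COL1A1 is 8.82 or less on every analogue array and 8.89 or more on every vehicle array, whereas SPARC and ALPL overlap between the treatments.

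Differences between the times in vehicle cultures did not pass the test over all 6 groups. In vehicle at 24 h against 6 h, ALPL had a log2 fold change of -1.68 (SE 0.771, limma adjusted p = 1.00) and SPARC of -1.05 (SE 0.584, limma adjusted p = 1.00). SPP1 ILMN_1651354 had a log2 fold change of 0.83 and COL1A1 of 0.17 in the same comparison. In this comparison 0% of all tested probes and 0 of the 8 bone probes were called, and at an unadjusted p under 0.05 2.86% of all probes and 0 of the 8 passed. When only the 4 vehicle arrays were fitted, the same ALPL fold change had an SE of 0.181 and passed (limma adjusted p = 0.035). The share of all tested probes called in that fit was not counted. The change of each analogue's effect with time was tested as well, with 0 of 8 bone probes and 0% of all probes called for ST362 and for MEB55, and at an unadjusted p under 0.05 0 of 8 against 2.47% of all probes for ST362 and 1.41% for MEB55.

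RUNX2 and BGLAP were close to the detection limit. The RUNX2 probe ILMN_1716651 read 4.22 and 4.95 with ST362, 4.14 and 4.60 with MEB55, and 4.88 and 4.68 with vehicle at 6 h. The 24 h levels were 4.65 and 4.27 with ST362, 4.26 and 4.25 with MEB55, and 5.28 and 5.18 with vehicle. All 4 vehicle arrays, 2 ST362 arrays and 1 MEB55 array detected it, and all MEB55 arrays lay below all vehicle arrays. The probe entered the tests only through the vehicle groups, where it was high and both arrays detected it, so its differences are a description: over both times the log2 fold change was -0.70 with MEB55 and -0.49 with ST362, neither of which passed. At 24 h the probe was not detected on either MEB55 array. Its log2 fold change there was -0.98 (95% interval -1.55 to -0.41, limma adjusted p = 0.693). With the lowest detected signal of each MEB55 array as the level it could have had, the mean was 1.62-fold lower than with vehicle. That value describes these arrays and is not a lower limit of the change. The other RUNX2 probe had a log2 fold change of 0.125 in the same comparison.

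The second RUNX2 probe, ILMN_2377746, did not follow the first (r = -0.118 over 12 arrays). At 6 h it read 4.80 and 4.42 with ST362, 4.28 and 4.32 with MEB55, and 4.68 and 4.63 with vehicle. At 24 h it read 4.46 and 4.58 with ST362, 4.82 and 4.52 with MEB55, and 4.13 and 4.96 with vehicle. The lowest and the highest of these were both on vehicle 24 h arrays. Its log2 fold change over both times was -0.11 with MEB55 (95% interval -0.49 to 0.26) and -0.03 with ST362 (95% interval -0.41 to 0.34), so the probes of this gene disagree.

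The BGLAP probe, ILMN_1755818, ranged between 4.43 and 4.56 on the ST362 arrays, between 4.47 and 4.97 on the MEB55 arrays and between 4.42 and 4.71 on the vehicle arrays. It was detected on 1 ST362, 3 MEB55 and 2 vehicle arrays, and the groups overlapped. It entered the tests only through MEB55 6 h, the 1 group with both arrays detected, so its log2 fold change over both times, 0.17 with MEB55 and -0.05 with ST362, is given as a description. RefSeq also lists a readthrough gene, PMF1-BGLAP, and whether the probe reads that transcript was not tested.

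**Figure D4:**
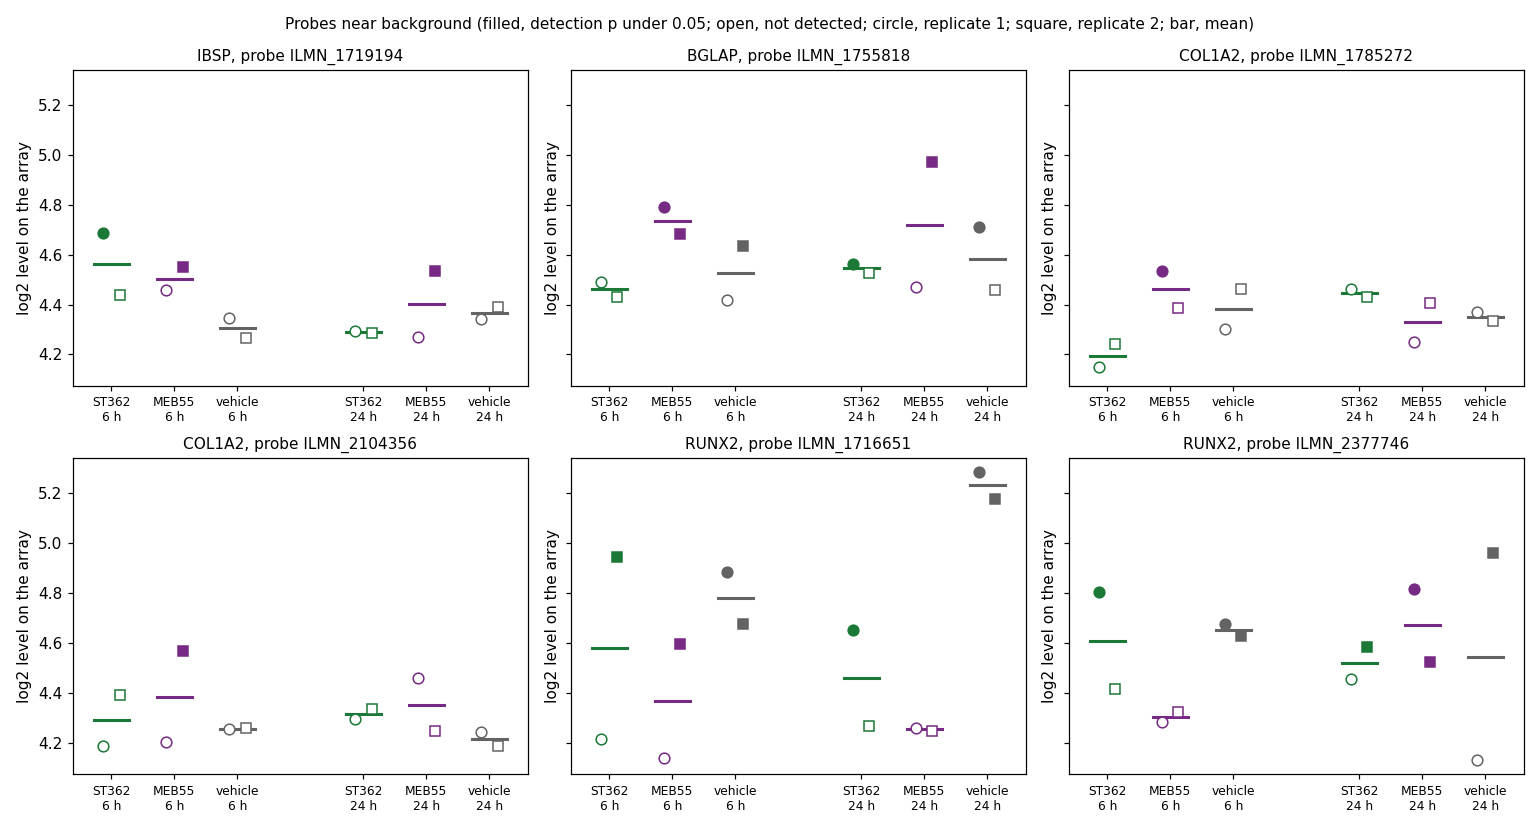
Levels of the 6 probes of IBSP, BGLAP, COL1A2 and RUNX2 on the 12 arrays, in log2 units on a shared vertical scale, with ST362, MEB55 and vehicle at 6 h and then at 24 h (filled, detected; open, not detected; circle, replicate 1; square, replicate 2; bar, group mean of 2 arrays). No level exceeds 5.28, and the RUNX2 probe ILMN_1716651 is the one detected on all 4 vehicle arrays.

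The analogues were compared with each other as 1 pair of compounds, and the fits did not pair their arrays. The deviations of replicate 1 from the group means correlated between ST362 and MEB55, at r = 0.492 at 6 h and 0.476 at 24 h. Differences between arrays that both analogues shared can thus widen the intervals below. A fit that paired ST362 and MEB55 arrays within a time was not run. Over both times 0 of the 8 probes and 0.018% of all tested probes were called between MEB55 and ST362, and at 6 h and at 24 h 0 of 8 and 0%. At an unadjusted p under 0.05, 0 of 8 passed in each comparison, against 7.88% of all probes over both times, 2.75% at 6 h and 3.62% at 24 h. The difference, MEB55 minus ST362 over both times, was 0.48 for SPP1 ILMN_1651354 (95% interval -0.40 to 1.36), 0.59 for SPP1 ILMN_2374449 (95% interval -0.29 to 1.47) and -0.02 for COL1A1 (95% interval -0.83 to 0.79). It was 0.41 for SPARC (95% interval -0.49 to 1.31) and 0.68 for ALPL (95% interval -0.61 to 1.97). All 5 intervals include 0 and reach past a 1.5-fold difference on the MEB55 side, and those of COL1A1 and ALPL do so on the ST362 side too, so they do not show that the analogues act alike. At 6 h, SPP1 ILMN_1651354 was higher with MEB55 than with ST362 by 0.92 (95% interval -0.24 to 2.08), and at 24 h by 0.04 (95% interval -1.12 to 1.20).

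**Figure D5:**
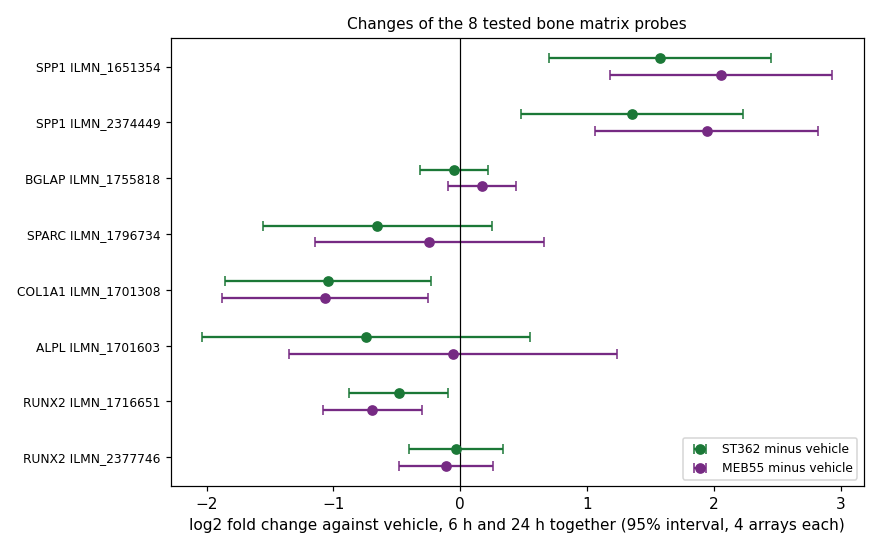
Log2 fold change against vehicle over both times for the 8 tested probes (horizontal axis; points, estimates of the limma fit; lines, 95% intervals; 4 arrays per treatment). Both SPP1 probes lie above 0 with both analogues, COL1A1 and RUNX2 ILMN_1716651 lie below 0, and the intervals of the other probes include 0. RUNX2 ILMN_1716651 entered the tests only through vehicle groups and BGLAP only through MEB55 6 h.

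The genes whose levels were most like those of each bone gene were found among 12247 genes by the correlation over the 12 arrays, which share treatments. For SPP1 they were TMOD1 (r = 0.92), TM4SF19 (r = 0.899) and UBFD1 (r = 0.894), and for COL1A1 they were PRKCA (r = 0.949), MYBL1 (r = 0.945) and THY1 (r = 0.944). SPARC was most like MCUB (r = 0.95), DSG2 (r = 0.937) and NPPB (r = 0.936), and ALPL was most like MED27 (r = 0.94), MED19 (r = 0.939) and PBX3 (r = 0.938). For RUNX2, read from ILMN_1716651 with values near background that the other probe did not follow, the 3 genes were MRTFB (r = 0.957), PPP4R1 (r = 0.947) and SPIN4 (r = 0.928). The BGLAP values, near background, were most like those of NPR1 (r = 0.861), BBLN (r = 0.835) and RDH8 (r = 0.825).

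Other genes of bone formation came from 7 lists with 97 genes, of which only a part had a tested probe. Where a gene had several such probes, the brightest was used. Of the tested list genes, 0 were called in any comparison. Calls were rare among all tested probes too. Over both times the share called was 0.577% with ST362, 0.446% with MEB55 and 0.018% between the analogues. It was 0% in every other comparison, so the count of 0 says little about these genes. Of the osteoblast transcription factors 6 of 13 were tested. ATF4, which mouse osteoblasts need for collagen synthesis, had a log2 fold change of 0.43 with MEB55 (limma adjusted p = 0.095) and 0.33 with ST362 (limma adjusted p = 0.161) over both times, and LEF1, a nuclear partner of beta-catenin, had 0.00 with MEB55 and -0.24 with ST362. Of the BMP, Wnt and hormone signalling genes 16 of 21 were tested, with a median of -0.15 with MEB55 and 0.01 with ST362, where the median of all tested probes was -0.01 with each. The ligand BMP6 had 0.89 with MEB55 and -0.29 with ST362, and NOG, a secreted BMP inhibitor, had -0.81 with MEB55 and -0.59 with ST362.

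Collagen biosynthesis and processing was tested for 16 of 19 genes, of which 12 had positive values with MEB55 (median 0.12) and 11 with ST362 (median 0.04). The prolyl hydroxylase subunits P4HA1 and P4HA2 had the largest values. P4HA1 had 0.64 with MEB55 (limma adjusted p = 0.131) and 0.70 with ST362 (limma adjusted p = 0.0817), and P4HA2 had 0.62 with MEB55 and 0.66 with ST362. Of the other bone matrix genes 15 of 20 were tested, with a median of -0.14 with MEB55 and -0.20 with ST362. THBS1, thrombospondin 1, had -0.98 with MEB55 (limma adjusted p = 0.204) and -0.50 with ST362, and TNC, tenascin C, had 0.46 with MEB55 and -0.57 with ST362.

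The mineralisation list was tested for 4 of 10 genes, among them the phosphate transporter SLC20A1, with 0.65 for MEB55 and 0.48 for ST362, and the matrix protein kinase FAM20C, with -0.27 for MEB55 and 0.04 for ST362. Receptors of osteopontin and bone sialoprotein were tested for 4 of 5 genes and had medians of 0.04 with each analogue. The integrin subunit ITGAV had -0.31 with MEB55 and 0.07 with ST362, and CD44 had 0.29 with MEB55 and 0.01 with ST362. Among 5 of 9 matrix remodelling genes, the protease inhibitor TIMP2 had -0.38 with MEB55 and 0.24 with ST362, and the protease MMP9 had 0.30 with MEB55 and 0.01 with ST362. None of these differences passed the test.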

How the data were processed

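RNA of U2OS cells was hybridised to 12 Illumina bead arrays. The authors deposited intensity values without normalization, namely bead signals from GenomeStudio (version not given in the sources used here), and the detection p-values, as deposited, compare each probe with the negative control beads of its array. The authors' series values differed by at most 0.366% from those intensities once these had been quantile normalized. Groups came from the sample labels.

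Signals were background-corrected and quantile normalized by the neqc function (limma 3.58.1, R 4.3.3, offset 16) and put on the log2 scale. A probe was tested if some group had it detected (p under 0.05) on each of its arrays, which left 22186 probes. They were tested with limma and adjusted over all tested probes by Benjamini-Hochberg (threshold 0.05) in a fit of 6 groups (6 residual degrees of freedom, median residual SD 0.230) and a fit of treatment over both times (9, 0.221). The number of arrays limits the precision. The fits were also run on simulated data with known changes, and the outcome is not given here. Symbols came from the probe table of the array (30109 probes with 1 symbol). Promoter windows came from RefSeq for 6 of the 8 genes.

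The genes, the lists and the fit over both times were chosen with earlier results of these data known. All probes of the 8 genes are named, with the 3 most alike genes each. Per list, the 2 genes with the largest absolute change are named, as no tested list gene passed. Fits under other background corrections, normalizations, filters and variance models, with the replicate number as a block, under the cutoff of the methods and without single arrays were run as alternatives.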

Additional observations from a re-analysis of the deposited data

Results flagged for a closer look

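The ALPL level in the 4 ST362 arrays had 1 value far from the others: ST362 6 h replicate 1 read 8.18 and the other 3 arrays lay between 5.54 and 5.84, so the gap took up 0.889 of the range. Chance alone takes about 1 in 20 groups of 4 past the limit used (Dixon's 95% value), and these 4 arrays span both times. All 8 tested bone probes were screened in this way in ST362, in MEB55 and in vehicle, and 1 gap passed the limit. For SPARC at 24 h, both MEB55 arrays lay above the mean of the vehicle arrays and both ST362 arrays below it. The difference, MEB55 minus ST362, was 0.345 on the log2 scale and did not pass (limma adjusted p = 0.999). BGLAP at 6 h showed the same arrangement, with a difference of 0.276 between levels near background, but its probe was tested only because both MEB55 6 h arrays detected it.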

How the results depend on the processing

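The SPP1 call with MEB55 over both times depended on the processing. The count of bone probes called there, 1 in the report, was 0 without background correction, with a background offset of 50, with the authors' series values, with no detection filter, with trend and robust variances and with the replicate number as a block, and 2 with 75th percentile normalization or array weights. It ranged between 0 and 1 when single arrays were left out. The SPP1 log2 fold change (ILMN_1651354, MEB55 over both times) stayed positive throughout, between 1.52 and 2.32. It was 1.71 without MEB55 24 h replicate 1 and 2.32 without MEB55 24 h replicate 2. Under the cutoff of the methods the count of probes passing was 1 for ST362 at 24 h (0.491% of all tested probes). It was 2 for MEB55 at 6 h (0.379% of all) and 2 at 24 h (0.401% of all). Over both times it was 3 for each analogue, the SPP1 probes and COL1A1, where 0.509% of all tested probes passed with ST362 and 0.514% with MEB55. The count called was 1 for vehicle 24 h against 6 h, ALPL, when only the groups compared were fitted, where the share of all probes was not counted. Time as a term beside treatment, chosen after seeing the data, kept the count at 1. The replicate block changed no other call. The numbers were not taken to pair the samples across the times. Deviations of replicate 1 from the group means correlated at -0.368 between ST362 at 6 h and at 24 h. For MEB55 at 6 h and at 24 h this value was -0.386, and for vehicle it was 0.367. Between ST362 and MEB55 the deviations correlated at 0.492 at 6 h and at 0.476 at 24 h. No fit paired the analogues within a time.

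Changes of sign occurred in values that had not passed. RUNX2 ILMN_2377746 with ST362 over both times was 0.019 without background correction and with the authors' series values, and 0.038 with 75th percentile normalization. BGLAP with ST362 was 0.055 with 75th percentile normalization. The COL1A1 difference between the analogues was 0.041 with 75th percentile normalization and 0.04 with array weights, and ALPL with MEB55 over both times was 0.21 with array weights. Leaving out single arrays gave ranges that include 0. Over both times these were -0.44 to 0.25 for ALPL with MEB55, -0.39 to 0.29 for the COL1A1 difference between the analogues, -0.188 to 0.087 for RUNX2 ILMN_2377746 with ST362, -0.267 to 0.008 for it with MEB55 and -0.191 to 0.001 for its difference between the analogues. At 6 h they were -1.53 to 0.23 for ALPL with MEB55, -2.40 to 0.26 for ALPL with ST362, -1.39 to 0.34 for SPARC with MEB55 and -0.57 to 0.17 for RUNX2 ILMN_1716651 with ST362. At 24 h they were -0.13 to 1.19 for ALPL and -0.057 to 0.128 for SPARC, both with MEB55. The cause of these shifts was not tested.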
